A study of Arabidopsis thaliana with 28 samples.

Results

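AT4G25400 and AT4G25410 on chromosome 4, and AT5G51780 and AT5G51790 on chromosome 5, are related basic helix-loop-helix (bHLH) genes of Arabidopsis thaliana that stand side by side as a pair on each chromosome. These 4 genes, of 27444 protein-coding genes of the nuclear chromosomes, were selected on measured values of the same libraries. They were chosen through regions of the authors' list of root differential regions. Each pair with 3 kb on both sides holds 9 of these regions, of median width 478 bp against 258 bp over the list. The gene table gives none of the 4 a name, so they are called by locus. bHLH proteins are transcription factors that pair through a helix-loop-helix and bind short DNA motifs called E-boxes. Cytokinins are plant hormones whose signal passes through a phosphorelay to type-B response regulators, which bind DNA and switch on early target genes, among them the type-A response regulators that dampen the signal. Open chromatin is the part of the genome that the transposase Tn5 can enter, and ATAC-seq reads it out as peaks.

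The study asked how cytokinin changes chromatin accessibility in roots and shoots, and what the type-B response regulators have to do with it. It holds 16 ATAC-seq libraries, and 12 RNA-seq samples that were not analysed here. Roots of the wild type, Col-0, gave 8 libraries (4 control, 4 BA), its shoots gave 4 (2 control, 2 BA), and roots of arr1,10,12 gave 4 (2 control, 2 BA); this mutant is named for the type-B genes ARR1, ARR10 and ARR12. BA is the cytokinin benzyl adenine, given at 5 µM for 45 min in MS liquid medium, against the vehicle alone, and all libraries came from DAPI-stained nuclei sorted by fluorescence. The series text calls the replicates biological. Plant age and the alleles of the mutant are not given in the sources used here.

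The libraries held 30778 to 36358 peaks each, over 19.7 to 28.7 Mb, with fewest bases covered in shoots. Peak lists hold positions alone, so read depth, peak height and counting precision are unknown. Accessibility is given here as the covered percent, the share of the bases of a window that lies under a peak of one library; for a gene the window is its body and 1 kb to either side. Of the marker genes, 5 of 5 of the root list had a higher mean covered percent in roots (3 passed the test described below), and 4 of 5 of the shoot list had a lower one (3 passed), with STM at 0 in both. Among all genes 32.3% passed as higher in roots and 8.82% as lower. The type-A gene ARR7 was covered at 31.7 to 38.7% in wild-type control roots and at 66.9 to 92.6% with BA, and at 24 to 31.2% in the 4 arr1,10,12 libraries. The other type-A genes listed overlapped between treatments in wild-type roots, ARR5 with 88.6 to 97.8% in control and 97.5 to 99.6% with BA, and ARR15 with 0 to 18.8% and 11.2 to 33.3%. ARR12 was covered at 44.0 to 60.1% in wild-type roots and at 36.9 to 43.5% in arr1,10,12 roots, while ARR1 and ARR10 overlapped between genotypes; peaks over a gene do not test whether it is mutated.

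The chromosome 4 pair was mapped from 3 kb left of AT4G25400 to 3 kb right of AT4G25410, a span of 12506 bp. Wild-type control roots had 69.1 to 77.0% of it under 5 to 7 peaks. With BA, 3 libraries had 88.7 to 89.6% of it covered and BA replicate 4 had 75.2%. The BA libraries were thus of unequal kind: replicate 4 fell within the control range and the other 3 lay above it. Shoots had 19.7 to 22.5% covered and arr1,10,12 roots 65.1 to 69.8%, of which only the upper end reached the lowest wild-type control.

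The widest peak of this map showed the same split among the BA libraries. In BA replicate 1 a single peak of 8171 bp ran from 12978727 to 12986897 on chromosome 4 (TAIR10), over all of AT4G25400, the space between the genes and most of AT4G25410. Only 0.0738% of the peaks of that library were as wide. BA replicates 2 and 3 had peaks of 7231 and 7239 bp from nearly the same left edge, and BA replicate 4 had 3695 bp at most. The widest peak was 2612 to 3820 bp in wild-type controls, 2475 to 2782 bp in arr1,10,12 roots and 731 to 839 bp in shoots.

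**Figure D1:**
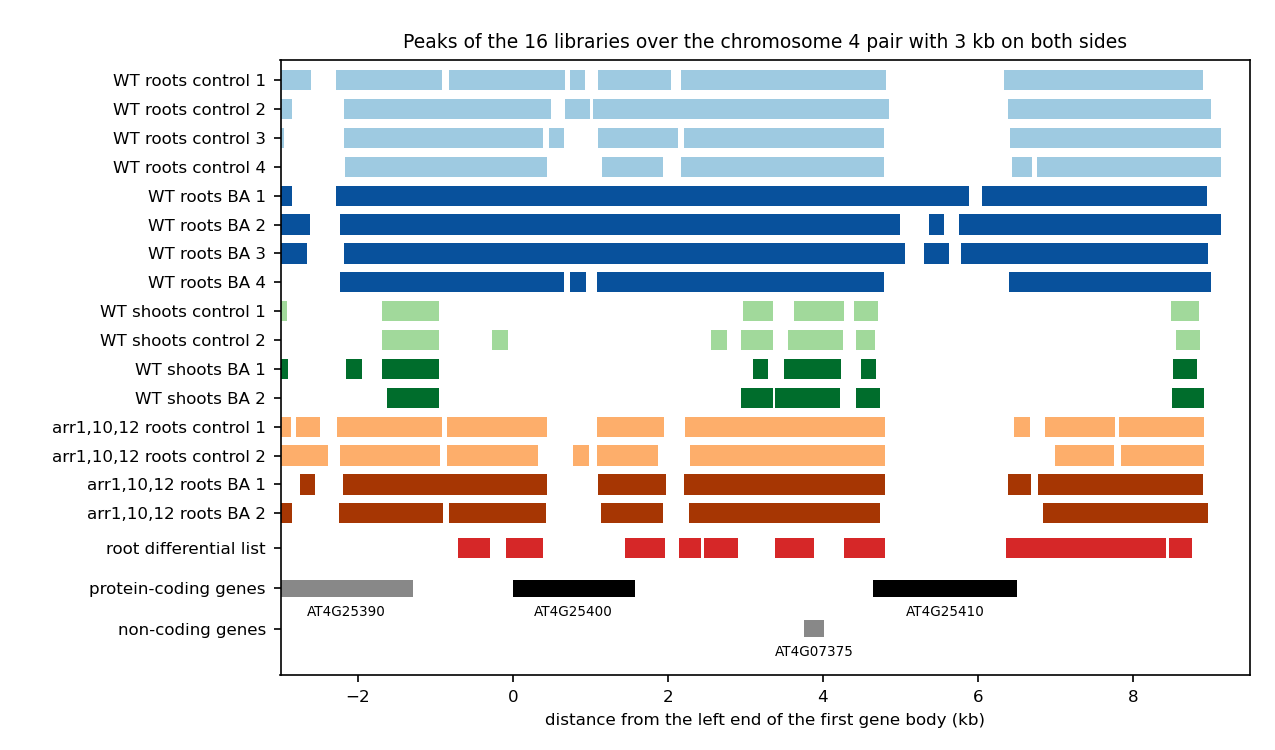
Peaks of each of the 16 libraries (rows) over the chromosome 4 pair, with distance from the left end of the AT4G25400 body in kb on the horizontal axis; bars are peaks, red bars are regions of the authors' root differential list, black and grey bars are gene bodies. The 3 BA root libraries with peaks of 7231 to 8171 bp bridge both genes, while the shoot rows hold short peaks of at most 839 bp.

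Laid over each other, the peaks divided the chromosome 4 map into a shared part and a root part. Every one of the 16 libraries covered 1911 bp (15.3%), in 5 stretches, of which the widest were 663 bp left of AT4G25400 (12979395 to 12980057) and 594 bp between the genes (12984639 to 12985232), over the non-coding gene AT4G07375. Another 3957 bp (31.6%) lay under a peak in all 12 root libraries, of both genotypes and treatments, and in no shoot library. These included 729 bp across the right end of AT4G25400 (12982159 to 12982887) and 766 bp right of AT4G25410 (12988006 to 12988771). No base was covered in a shoot library and in no root library.

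Stretches under a peak in 3 or 4 wild-type BA root libraries and in no other library came to 783 bp of this map. The longest were inside the AT4G25410 body, at 12985871 to 12986013, 12986383 to 12986582 and 12987073 to 12987354. No base was covered in all 4 BA libraries and in no wild-type control, because BA replicate 4 left these stretches empty.

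The chromosome 5 pair, mapped over 12993 bp in the same way, was 59.6 to 65.4% covered in wild-type control roots and 70.8 to 79.6% with BA. Here the BA libraries, replicate 4 included, all lay above the controls. Shoots had 16.8 to 25.2% covered and arr1,10,12 roots 49.6 to 57.4%, so every mutant library lay below every wild-type root library and above every shoot library. The widest peak was 2766 to 3129 bp with BA and 2103 to 2500 bp in wild-type controls, and no peak ran from one gene into the other.

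**Figure D2:**
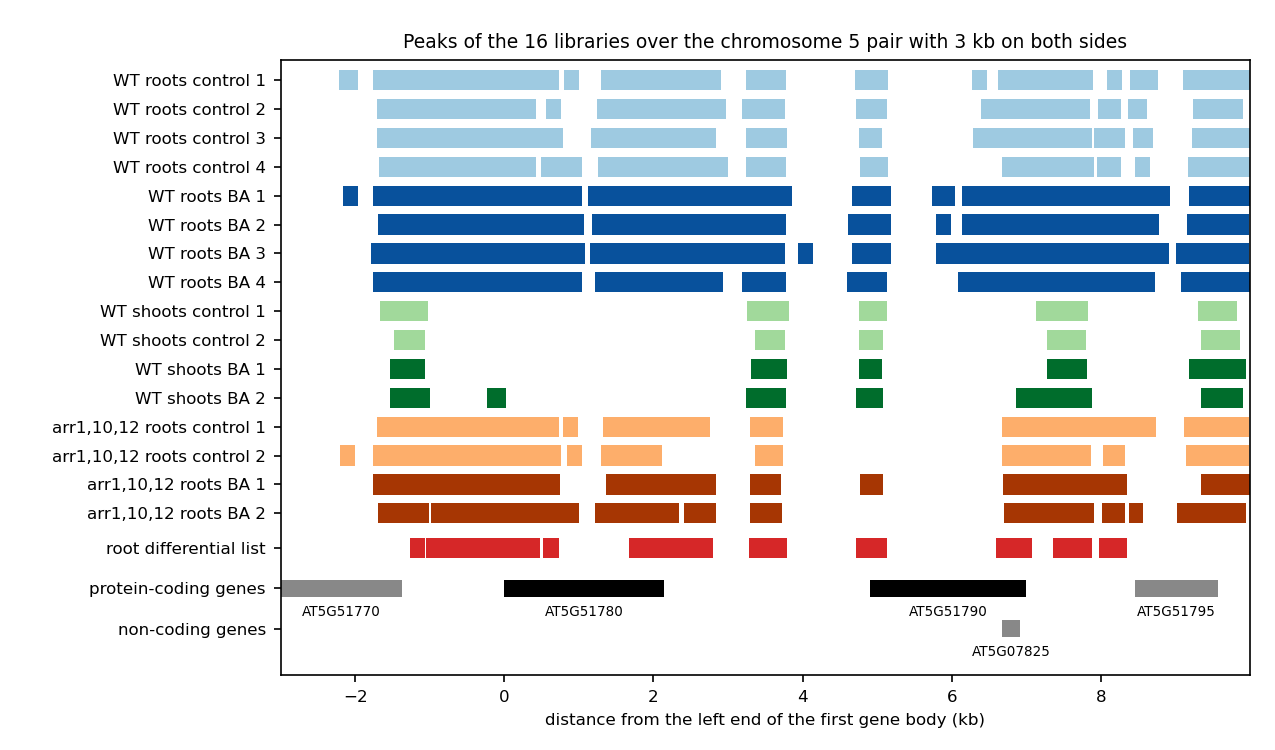
Peaks of each of the 16 libraries (rows) over the chromosome 5 pair, with distance from the left end of the AT5G51780 body in kb on the horizontal axis; bars are as named at the left. The short peak at the left end of AT5G51790 is present in all 12 wild-type libraries and in 1 of the 4 arr1,10,12 libraries.

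On chromosome 5 all 16 libraries shared 1748 bp (13.5%), in stretches of 409 bp left of AT5G51780 (21033148 to 21033556), 351 bp between the genes (21037991 to 21038341) and 512 and 476 bp right of AT5G51790 (21041909 to 21042420 and 21043971 to 21044446). All 12 root libraries and no shoot library covered 2444 bp (18.8%), most of it at AT5G51780: 742 bp left of its body (21033649 to 21034390), 401 bp at the left end of the body (21034646 to 21035046) and 752 bp at the right end (21035985 to 21036736). The 4 BA libraries covered 208 bp that no wild-type control covered, including 135 bp inside AT5G51790 (21040766 to 21040900). As on chromosome 4, no base was covered in shoots alone.

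By gene, BA differed from control in wild-type roots as follows; this contrast chose the genes, so its values are a description. AT4G25400 was covered at 87.5, 93.4, 83.6 and 73.8% in control replicates 1 to 4, and at 100, 100, 100 and 93.7% with BA. All BA libraries lay above all controls, the closest being BA replicate 4 and control replicate 2. The mean difference was 13.9 percentage points, with BA higher in 4 of 4 pairs of the same replicate number by 6.61 to 19.9 points.

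AT4G25410 was covered at 60.6, 60.2, 57.9 and 55.1% in control and at 95.5, 85.6, 89.6 and 58.2% with BA. BA replicate 4 lay inside the control range and the other 3 far above it. The mean difference was 23.7 points, and 31.7 points without BA replicate 4. The difference lay in the gene body. Its flank on the left was 100% covered in all 12 root libraries. The body alone went from 18.3, 17.5, 12.7 and 10.9% in control to 90.6, 70.1, 78.4 and 13.2% with BA. The authors' root differential list has no region between 12985820 and 12987383 on chromosome 4, where most of this body lies.

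AT5G51780 was covered at 85.7, 80.6, 83.4 and 89.6% in control and at 98, 97.3, 98.6 and 90.5% with BA. The groups did not overlap, but BA replicate 4 and control replicate 4 were less than 1 point apart (0.916), and the mean difference was 11.3 points. AT5G51790 was covered at 46.8, 46.8, 49.1 and 40.6% in control and at 65.5, 64.4, 71.6 and 59.6% with BA. Its groups lay far apart, with a mean difference of 19.4 points and pairs that differed by 17.5 to 22.5 points. As in AT4G25410, most of this was in the body, with 26.8 to 42.0% in control and 54.0 to 71.2% with BA. The authors' root list has no region between 21039760 and 21041223 on chromosome 5, inside that body.

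BA and control libraries did not overlap, with BA higher, for 3 of the 4 genes, against 0.222% of all genes. The median gene differed by -1.33 points, so most windows were slightly less covered with BA. With the mean of each library subtracted, the 4 differences were 13.2 to 25.6 points. In bulk nuclei a larger share of nuclei of one cell type and a more open state in each nucleus cannot be told apart.

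**Figure D3:**
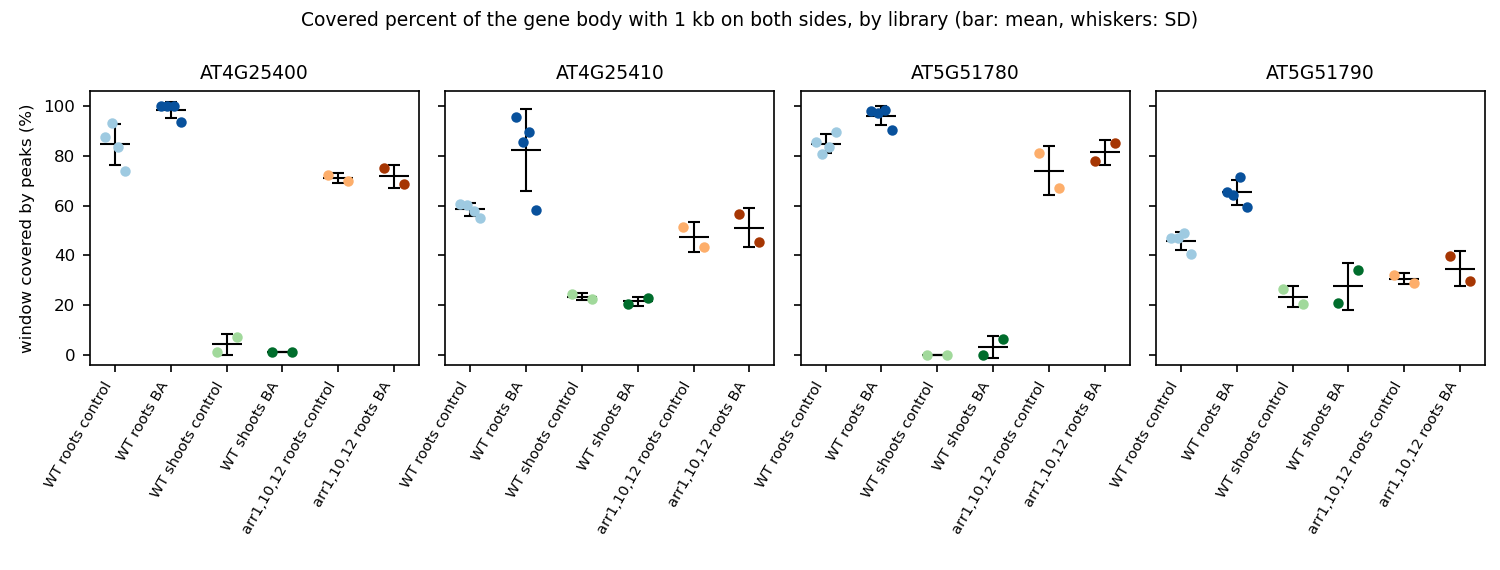
Percent of each window (gene body and 1 kb to either side) that lay under peaks (vertical axis), for each of the 4 genes (panels) and 6 groups (horizontal axis); points are libraries, long bars are means and whiskers are 1 SD (n = 4 or 2). The mean of wild-type BA roots is highest in each panel and those of shoots lowest, with BA replicate 4 of AT4G25410 (58.2%) among the controls.

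In wild-type shoots AT4G25400 and AT5G51780 were little covered with or without BA. AT4G25410 and AT5G51790 stood near or above the mean window coverage over all genes, which was 20.69 to 24.75% in the shoot libraries. AT4G25400 had 1.34 and 7.23% in control and 1.18 and 1.18% with BA, and AT5G51780 had 0 and 0% in control and 0 and 6.22% with BA. AT4G25410 had 24.3 and 22.5% in control and 20.3 and 22.8% with BA, nearly all of it in the left flank, where 74.0 to 87.6% was covered, against 1.77 to 5.10% of the body. AT5G51790 had 26.3 and 20.4% in control and 20.9 and 34.1% with BA. BA minus control was -3.11, -1.83, 3.11 and 4.14 points for AT4G25400, AT4G25410, AT5G51780 and AT5G51790. Groups did not overlap for 1 gene, AT4G25400, where BA was lower, as it was for 5.92% of all genes. With 2 libraries against 2 no exact test can go below p = 0.333, so none is given.

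In arr1,10,12 roots BA minus control was 0.771, 3.65, 7.38 and 4.05 points for the same genes in the same order. AT4G25400 had 72.4 and 69.7% in control and 75.1 and 68.6% with BA. AT4G25410 had 51.6 and 43.2%, and 56.6 and 45.5%. The treatments overlapped in both genes. AT5G51780 had 81.1 and 67.0% in control and 77.8 and 85.0% with BA. AT5G51790 had 32.1 and 29.0%, and 39.6 and 29.6%. In none of the 4 genes did both BA libraries exceed both controls, which was the case for 4.27% of all genes. Whether BA acted differently in the mutant than in the wild type was not tested at these numbers.

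All 4 genes were more covered in wild-type roots than in shoots. Over wild-type roots and shoots (8 and 4 libraries, BA and control together) the mean covered percent of AT4G25400 was 91.5% ± 9.4 against 2.73% ± 3.0 (SD). AT5G51780 stood at 90.5% ± 7.0 against 1.55% ± 3.1. AT4G25410 was at 70.3% ± 16.8 against 22.5% ± 1.6, and AT5G51790 at 55.6% ± 11.1 against 25.4% ± 6.4. Every root library lay above every shoot library in each gene, as it did in 6642 of all 27444 genes.

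The differences were 88.8 points for AT4G25400, 47.9 for AT4G25410, 88.9 for AT5G51780 and 30.1 for AT5G51790, which rank 10, 354, 9 and 1156 among the 27444 genes. Each passed the two-sided exact permutation test of the mean difference between libraries (p = 0.00202, the smallest possible for 8 against 4; adjusted p = 0.00781, Benjamini-Hochberg over all genes). Of all genes, 32.3% were called higher in roots, so the call by itself is a common one. The genes were chosen through regions found in roots, so this direction is not independent of the choice. The calls also depend on scaling: 78.6% of the 11296 genes called were higher in roots as measured, and 34.4% of 15286 once each library's mean was subtracted, when the 4 genes differed by 84, 43.1, 84.2 and 25.4 points and kept their calls. BA and control libraries of one replicate number moved together, and with each pair averaged the exact permutation test of 4 against 2 cannot go below p = 0.0667, so that the calls are lost at the same differences (adjusted p = 0.167). Within control libraries the differences were 80.3, 35.1, 84.8 and 22.5 points, and within BA libraries 97.3, 60.6, 93.0 and 37.8 points.

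The AT4G25400 body held no peak base in any of the 4 shoot libraries, and the AT5G51780 body was covered, at 0.931%, only in shoot BA replicate 2. The right flank of AT4G25410 was 92.7 to 100% covered in wild-type roots and 0% in all 4 shoot libraries, and the right flank of AT4G25400 was at 77 to 100% against 0 to 1.1%. Peaks in shoots lay mostly beside the genes, in the stretches that all libraries shared.

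In the mutant all 4 genes had a lower mean covered percent than in wild-type roots, by margins that did not pass adjustment over all genes. arr1,10,12 minus wild type was -20.1 points for AT4G25400 (exact permutation p = 0.00808, adjusted 0.375) and -21.1 for AT4G25410 (p = 0.0222, adjusted 0.467). It was -12.7 for AT5G51780 (exact permutation p = 0.0182, adjusted 0.448) and -23.0 for AT5G51790 (p = 0.00404, adjusted 0.337). These p-values count all libraries as separate, though BA and control libraries of the same replicate number moved together. With each such pair averaged the differences were the same. The exact permutation test of 4 against 2 then gave p = 0.0667 for each gene, the smallest possible. No gene at all passed the adjustment (0% of all genes lower in the mutant), while 2465 of 27444 had an unadjusted exact p under 0.05 and 6.29% were lower at that level.

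The 8 wild-type libraries in this comparison include the BA libraries through which the genes were chosen. Its differences and p-values are therefore not independent of the choice. Within control libraries the differences were -13.5, -11.1, -10.8 and -15.3 points, and within BA libraries -26.6, -31.1, -14.7 and -30.7 points. Mutant and wild-type control libraries did not overlap for AT4G25400, AT4G25410 and AT5G51790. They overlapped for AT5G51780, where 1 mutant library stood at 81.1% and the lowest wild-type control at 80.6%. The share of all genes without such overlap in control libraries was not counted, so this lack of overlap cannot be set against a background. With 4 against 2 libraries the exact permutation test cannot go below p = 0.0667. Within control libraries AT4G25400 and AT5G51780 had exact permutation p = 0.133. AT4G25410 and AT5G51790 had exact permutation p = 0.0667 there, the smallest possible. Over all 12 root libraries the genotypes did not overlap in 1 gene, AT5G51790, with 29.0 to 39.6% in the mutant and 40.6 to 71.6% in the wild type, as in 1.14% of all genes.

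Within the windows, bodies and flanks differed unequally between genotypes. For AT4G25400 the right flank was at 77 to 100% in wild-type roots and at 58.5 to 76.6% in the mutant, without overlap, and the body at 55.1 to 100% against 54.7 to 63.7%. For AT4G25410 the body was at 10.9 to 90.6% in wild-type roots, where its BA libraries were the high ones, and at 5.16 to 14.5% in the mutant, a mean difference of -29.4 points. Its right flank was 92.7 to 100% covered in wild-type roots and 51.6, 66.2, 80.1 and 91.5% in the 4 mutant libraries, while the left flank was 100% covered in both genotypes, so the right flank and the body both carried the difference. For AT5G51790 it was the left flank, with 13.8 to 44.2% in wild-type roots and 0, 0, 13.8 and 0% in the mutant, and the body, with 26.8 to 71.2% against 14.2 to 23.1%. The AT5G51780 body overlapped between genotypes, with 70.8 to 97.3% in the wild type and 71.5 to 89.6% in the mutant, and its mean difference was -6.48 points. Its right flank was at 68.9 to 100% in the wild type and at 60.5, 0, 69.1 and 62.6% in the mutant.

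Ordered by level, AT4G25400, AT4G25410 and AT5G51790 ran from wild-type BA roots through wild-type control roots and arr1,10,12 roots to shoots. BA replicate 4 of AT4G25410 broke the first step. Wild-type control and mutant roots overlapped by 1 library each in AT4G25400 (73.8 against 75.1%) and AT4G25410 (55.1 against 56.6%). The treatments of the mutant overlapped in all 3 genes. Mutant and shoot libraries stood at 68.6 to 75.1% and 1.18 to 7.23% for AT4G25400. For AT4G25410 they stood at 43.2 to 56.6% and 20.3 to 24.3%. How many of all genes separate in this way was not counted. For AT5G51790 the last step overlapped, since 1 shoot library (34.1%) lay above 3 of the mutant libraries. AT5G51780 had the same order of means, with mutant and wild-type control roots overlapping.

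The authors' root differential list holds 760 regions, of which 18 lie in the maps, 9 at each pair (2.37% of the list); its shoot list holds 685, of which 0 lie there. A region touches the windows of all 4 genes, with 5 at AT4G25400, 3 at AT4G25410, 3 at AT5G51780 and 4 at AT5G51790. This is the property that chose the genes; 2.18% of all genes have such a region for roots and 2.4% for shoots. Only 3 genes, AT4G25400 among them, have 5 or more. The list gives no fold, direction or p, so direction is read here from the peaks.

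By the peaks, 11 of the 18 regions had a higher mean covered percent with BA in wild-type roots and none had a lower mean. The other 7 were fully covered in all 8 libraries, which leaves no direction. Some means differed little, with 96.9% in control and 97.4% with BA at 21037903 to 21038420 on chromosome 5. The largest difference was 75.2 against 100%, at 21042603 to 21042980 on chromosome 5. The contrast made the list, so these counts are a description. Over all 760 regions 38.9% had a higher mean with BA, 6.71% a lower mean, and 54.3% were fully covered in all 8 libraries. BA and control libraries did not overlap in 1 of the 18, with 4.21% over the list. That region lay between AT5G51790 and the next gene, AT5G51795, nearer to AT5G51795 (chromosome 5, 21042603 to 21042980). It was covered at 52.9, 78.0, 92.9 and 77.0% in control and 100% in all BA libraries. It was empty in shoots and 79.4 to 100% covered in the mutant.

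The widest region, 2058 bp across the right end of AT4G25410 and beyond it (chromosome 4, 12987383 to 12989440), was 92.8 to 100% covered in wild-type controls and 98.5 to 100% with BA. It was empty in all 4 shoot libraries and at 65.0 to 94.9% in the mutant. The next, 1518 bp at the left end of AT5G51780 (chromosome 5, 21033583 to 21035100), was 96.4 to 100% covered in all 8 wild-type root libraries and 97.8 to 100% in the mutant. In shoots it was at 0 to 19.8%. Of the 18 regions 7 held no peak base in any shoot library, against 21.8% of the list.

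Mutant and wild-type root libraries did not overlap, the mutant lower, in 4 of the 18 regions, against 5% of the list, and 1 of the 4 lay at the chromosome 4 pair. It was a region of 278 bp between the genes (chromosome 4, 12983163 to 12983440), at 77.3 to 100% in the wild type and 73.4, 49.6, 76.3 and 57.2% in the mutant. The one with most empty mutant libraries was 418 bp at the left end of AT5G51790 (chromosome 5, 21039343 to 21039760). It was covered at 100, 99, 74.4 and 87.6% in control and 100, 100, 100 and 98.6% with BA in wild-type roots, and at 89.5, 76.8, 76.3 and 87.3% in the 4 shoot libraries. In the mutant it was at 0, 0, 73.7 and 0%, the 73.7% being BA replicate 1. Thus it was open in both wild-type tissues and had no peak in 3 of the 4 mutant libraries.

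**Figure D4:**
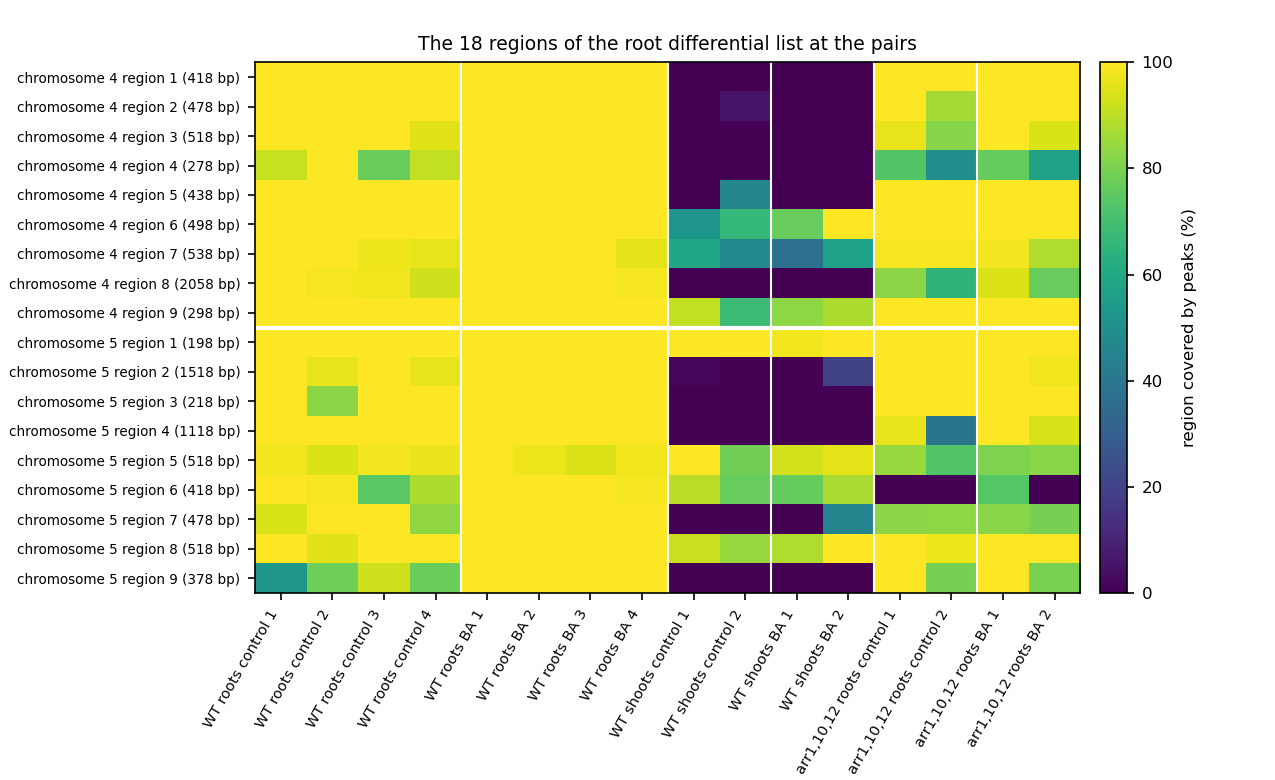
Covered percent (colour, 0 to 100%) of the 18 regions of the authors' root differential list at the pairs (rows, left to right along each chromosome) in the 16 libraries (columns). The shoot columns are empty for 7 regions, and chromosome 5 region 6 is at 0% in 3 mutant libraries while covered at 74.4 to 100% in wild-type roots.

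The genes next to the pairs shared some of this. The windows of AT5G51795, AT4G25390 and AT5G51770 share bases with those of AT5G51790, AT4G25400 and AT5G51780, so their values are not separate. AT5G51795 was covered at 60.5 to 72.6% in wild-type control roots and 81.2 to 90.7% with BA, without overlap and with a mean difference of 18.9 points. AT4G25390 and AT5G51770, on the outer left of the pairs, overlapped between treatments with differences of 3.49 and 2.17 points. All 3 were called higher in roots than in shoots (32.9 to 44.1 points, adjusted p = 0.00781, exact permutation), as were 32.3% of all genes. Inside AT5G51790 the non-coding gene AT5G07825 was 100% covered in all 8 wild-type root libraries, 93.8 to 100% in the mutant and 0, 0, 0 and 26.1% in shoots.

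A list of relatives held 6 genes of bHLH subgroup I b. bHLH38, bHLH39, BHLH100 and BHLH101 are known for the response to iron shortage, and the table gives AT1G12540 and AT1G62975 no bHLH name. Of the 6, 5 were called higher in roots than in shoots, as were 32.3% of all genes. Their median difference was 27.9 points, against a median of 2.49 over all genes and 68.3 for the 4 genes. With BA in wild-type roots 2 were more covered and 4 less, none without overlap, and none has a region of either differential list. The relative most like the pairs was AT1G62975, with 94.8, 100, 98.6 and 70.2% in wild-type control roots, 100% in all BA libraries, 9.08 to 12.3% in shoots and 65.5 to 77.5% in the mutant. Its root minus shoot difference was 84.8 points, and arr1,10,12 minus wild type was -23.3 points (exact permutation p = 0.00606, adjusted 0.346).

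Over all 34 genes that the table names as bHLH, 18 were called higher in roots and 8 lower, with a median difference of 6.23 points; over all genes 32.3% were called higher and 8.82% lower. None of the 34 has a root differential region and 3 have a shoot one.

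**Figure D5:**
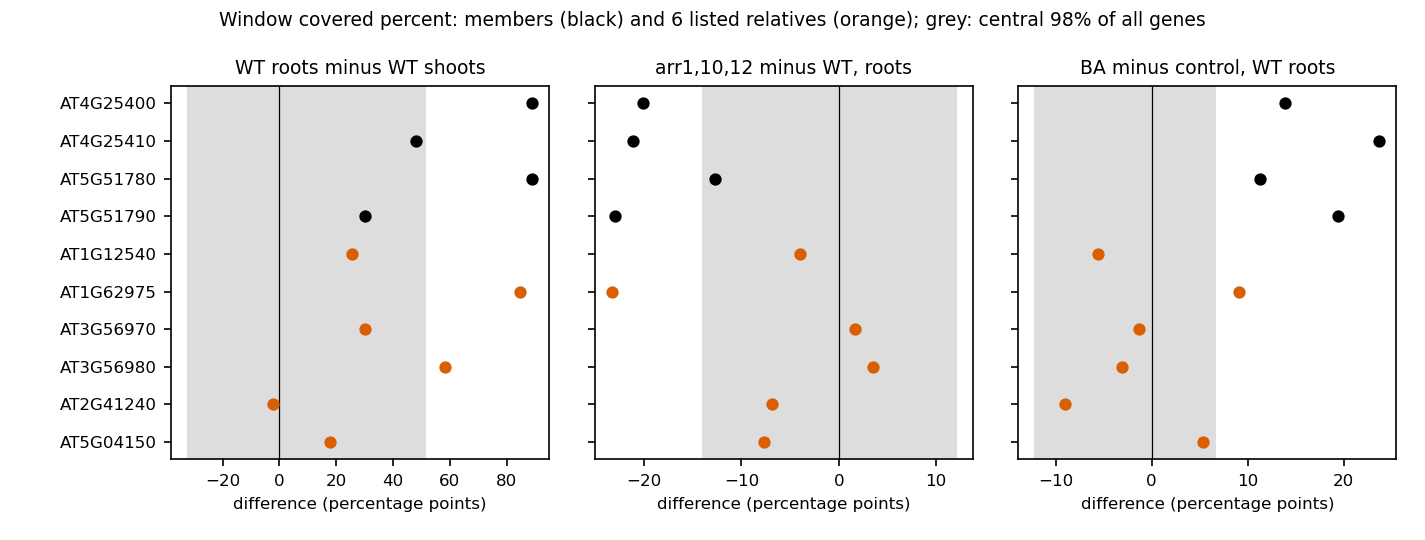
Difference in covered percent (horizontal axes, percentage points) of the 4 genes (black) and the 6 relatives (orange) for roots minus shoots, arr1,10,12 minus wild type and BA minus control; the grey band spans the central 98% of all genes. AT1G62975 (84.8, -23.3 and 9.12 points) is the relative outside the grey band in all 3 panels.

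The genes whose covered percent ran most like each member over the 16 libraries were named by Pearson's r, a description that mixes tissue, genotype and treatment. AT4G25400 ran most like AT1G62975 (r = 0.991), the relative described above, with r = 0.931 over the 12 root libraries alone. AT4G25410 ran most like AT5G26260 (r = 0.959), whose means were 60.7% in wild-type control roots, 84.7% with BA, 5.23% in shoots and 41.6% in the mutant. AT5G51780 ran most like GSTU26, a glutathione transferase gene (r = 0.991).

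AT5G51790 ran most like AT1G10455 (r = 0.962), SNL6 (r = 0.949) and GLP7 (r = 0.945). These 3 are neighbours on chromosome 1, so their windows share bases, and the next gene after them in the table is the type-A gene ARR4. AT1G10455 had means of 44.1% in wild-type control roots, 71.0% with BA, 19.1% in shoots and 24.7% in the mutant. Among the members themselves r over the 12 root libraries was highest between AT4G25400 and AT5G51790 (0.951) and lowest between AT4G25400 and AT5G51780 (0.739). These libraries include the wild-type root libraries through which the genes were chosen, so these r are not independent of the choice.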

How the data were processed

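Accessibility was read from ATAC-seq peak lists of 16 libraries and from the differential lists of roots and of shoots. All are deposited as chromosome, start and end only; the authors gave no score, fold or p-value in them. The tools HOMER 4.9.2, deepTools 2.5.2, SAMtools 1.5 and Bowtie 1.2.0 and the build TAIR10 appear, per the submitters' processing notes, without their roles, and the names of the differential lists give diffReps and a fold of 1.2. Read depth is unknown.

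The 4 genes, the gene lists and the tests were chosen with earlier results of these data known. Gene bodies came from a RefSeq table of assembly TAIR10.1, which gives no strand; against the peaks, the best offset was within 100 bp of 0 in 62 of 62 bins of 2 Mb. No gene table coordinates are printed. Peaks of a library were merged and the covered percent of each gene body and 1 kb to either side was taken (Python 3.11.15, numpy 2.4.6, pandas 2.3.3). All 27444 protein-coding nuclear genes were tested by two-sided exact permutation of the mean difference between libraries, with Benjamini-Hochberg adjustment and a threshold of 0.05; the procedure was tested on simulated data. The smallest p is 0.00202 for 8 against 4 libraries, 0.0286 for 4 against 4, 0.0667 for 4 against 2 and 0.333 for 2 against 2. Deviations from the treatment mean correlated at 0.316 to 0.464 between wild-type root libraries of the same replicate number and at -0.342 to 0.232 between other numbers, so the numbers pair these libraries.

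Named genes were the 4 members, genes in the maps, 6 relatives of bHLH subgroup I b, the marker lists and, for each member, the 3 genes with the highest Pearson r. Alternatives were other windows (body alone, 500 bp or 2 kb flanks), only peaks of 300 bp or wider, subtraction of the library mean, control or BA libraries alone, replicate pairs and leaving out each library. The planned look at protein and promoter sequences was not run, as no sequences were used here.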

Additional observations from a re-analysis of the deposited data

Results flagged for a closer look

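Wild-type root BA replicate 4 stood apart from the other 3 BA libraries in 4 measures, by a test on the gap between 1 library and the rest that chance meets in about 1 of 20 groups. Its values were 93.7% for the AT4G25400 window, 90.5% for the AT5G51780 window, 85.7% for the AT4G25400 body and 75.2% for the whole chromosome 4 map, each the lowest of the BA libraries. For the AT4G25400 window and body the other 3 libraries were all at 100%, so any lower value would have met the test there. The AT4G25400 window and body lie inside the chromosome 4 map, so these measures are not separate. The test was run on the windows and bodies of the 4 genes, the spaces between bodies and the whole maps. It covered wild-type control and BA roots. The AT4G25410 window and body did not meet it. Over all genes BA replicate 4 had a mean window coverage of 26.58%, inside the range of the other 3.

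In 4 comparisons BA was higher than control in every same-numbered pair of one set of libraries and lower in every pair of another. The differences of the effects were not tested. These came from a screen of the windows and bodies of the 4 genes, the spaces between bodies and the whole maps. With so few pairs such opposite signs can arise by chance. All 4 lie at the chromosome 4 pair, where these stretches overlap in part. The BA effect in wild-type roots exceeded that in shoots by 17.0 points in the AT4G25400 window and by 12.8 points over the chromosome 4 map. For the AT4G25400 body it exceeded that in arr1,10,12 roots by 28.1 points. Between the bodies of the chromosome 4 pair, the shoot effect minus the arr1,10,12 effect was -6.55 points.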

How the results depend on the processing

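Directions of the tissue and genotype differences held for the 4 genes in every alternative run. The tissue calls of all 4 were lost where the exact test cannot go below p = 0.0667: with control libraries alone (80.3, 35.1, 84.8 and 22.5 points for AT4G25400, AT4G25410, AT5G51780 and AT5G51790), with BA libraries alone (97.3, 60.6, 93.0 and 37.8) and with the replicate block, BA and control of a number averaged (88.8, 47.9, 88.9 and 30.1). Over all genes 0 were called in each of these 3, with 0 at an unadjusted p under 0.05. With the gene body alone 5649 genes were called, and AT4G25410 missed the threshold at 35.8 points (exact permutation, adjusted p = 0.0848); the cause was not tested. BA minus control in wild-type roots grew with the body alone to 23.2 points for AT4G25400, 48.2 for AT4G25410 and 27.6 for AT5G51790, and with 2 kb flanks it shrank to 8.88 for AT4G25400 and 15.6 for AT4G25410. The genotype difference of AT5G51780 shrank to -6.48 with the body alone. Leaving out 1 library at a time, the tissue differences were 87.6 to 91.3, 44.3 to 50, 87.7 to 90.5 and 27.8 to 33.0 points, the BA difference of AT4G25410 was 19.3 to 31.7, and the genes with all BA libraries above control numbered 84 to 267, against 61 with all libraries and 370 after subtraction of the library mean. Peak lists without scores allow no stricter peak threshold and show no change within a region that is fully covered in both groups.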
